A study of Rattus norvegicus with 64 samples.

Results

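The genes described here drive DNA replication and cell division, and they were followed in whole blood of 64 male Sprague-Dawley rats. They were chosen by name as 35 genes, found by their symbol in the gene column, and 36 identifiers carried these symbols because Rrm2 was listed under ENSRNOG00000008450 and again, as RRM2, under ENSRNOG00000023272. All 36 were among the 17366 genes listed for every rat, of 26405 genes listed for any rat. Globin-depleted, polyadenylated RNA of each rat was sequenced after cardiac puncture at an age of 85 to 90 days, 3 h after the last of 4 injections given 2 h apart. The rats received saline in a 22.5 °C environment (saline 22.5 °C, n = 6), saline in a cool 16 °C environment (saline 16 °C, n = 5), saline in a 39 °C environment that gives environment-induced hyperthermia (EIH 39 °C, n = 16), D-amphetamine at 22.5 °C (AMPH 22.5 °C, n = 22) or D-amphetamine at 16 °C (AMPH 16 °C, n = 15). Amphetamine is a stimulant that raises body temperature, and the 16 °C environment limits that rise. The comparisons ask how the division program of circulating cells differed with the drug, with heat and with the cool environment, and which blood cells it moved with.

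In dividing cells the MCM2-7 helicase is loaded on DNA before S phase, the clamp Pcna and the enzymes of nucleotide supply serve synthesis, and cyclins with Cdk1, mitotic kinases, kinesins and kinetochore proteins then build and run the spindle. Most blood cells no longer divide. Messenger RNA of this program in blood is known from young red cells that have only recently lost their nucleus, from activated lymphocytes and plasma cell precursors, and from immature myeloid cells. Alas2, the first enzyme of heme synthesis in red cell precursors, and Cd3e, a chain of the T cell receptor complex, served as the erythroid and the T cell reference in each rat. In whole blood, fewer cells of a type and less RNA per cell cannot be told apart.

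Libraries held between 19055615 and 40530319 counts. Levels are given as normalized counts, that is the estimated read count of a gene divided by the DESeq2 size factor of its library. These are not corrected for gene length, so each gene is compared between rats and never with another gene. A code in the names of the data files, here called the file code, split the rats into 14 sets, and what it marks is not given in the sources used here. Neither saline 22.5 °C nor saline 16 °C shared a file code with the other saline group. Some libraries stood apart. The 6 EIH rats of code V06504 (replicates 6, 7, 8, 9, 11 and 12) held the highest values of many mitotic genes, AMPH 22.5 °C replicate 21 had 845277 normalized counts of Alas2 with 6.54 of Top2a, and 5 rats had more than 5000 counts of myoglobin, a heart muscle transcript (saline 22.5 °C replicates 20 and 22, EIH 39 °C replicate 12, AMPH 16 °C replicates 2 and 12). In 2 rats at 22.5 °C some levels lay in the range of the other group rather than of the labelled one. AMPH 22.5 °C replicate 17 had 405 normalized counts of Rrm2 ENSRNOG00000008450, a subunit of ribonucleotide reductase, where saline 22.5 °C replicate 19 had 3488. The other 21 AMPH rats had 1909 to 7220 and the other 5 saline rats 231 to 1426. The mean log2 level of the T cell list was 10.36 in that AMPH rat, against 7.34 to 9.50 in the other AMPH rats and 9.76 to 10.38 in the other saline rats, and 9.72 in that saline rat. The monocyte list was at 8.90 in that AMPH rat and 10.19 in that saline rat, against 9.13 to 11.49 in the other AMPH and 8.61 to 9.59 in the other saline rats. The neutrophil list was at 6.51 and 9.03, against 7.95 to 9.92 and 6.65 to 9.49. Not every value lay with the other group: 6.51 was below both neutrophil ranges, 9.03 was within both, and 9.72 fell between the T cell ranges. Whether these 2 labels were exchanged was not tested. Both rats were kept under their labels, and results that rest on them are also given without them.

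The 5 rats with high myoglobin are included in the levels but were left out of the tests and correlations, which used the other 59. The defining erythroid markers and all 16 T cell markers were detected in each group.

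Promoters are shown for 5 members that the results turn on, searched for the elements by which this program is known to be switched on. The E2F element serves genes of the G1 to S transition, and the cell cycle homology region (CHR) with CCAAT boxes serves genes of G2 and mitosis. RefSeq promoters of assembly GRCr8 matched 29 of the 35 genes. The 250 bases before each start are given 5′ to 3′ along the gene, with matches on either strand in capitals. The CHR was searched with TTTGAA in one form and TTCGAA in the other form, and the box with the letters CCAAT alone. The letters taken for E2F were TTGGCGC in the first form, TTCCCGC in the next form, TTCGCGC in another form and TTGCCGC in the last form. Overlapping matches run together.
Tk1, chr10:103544778-103545027, minus strand: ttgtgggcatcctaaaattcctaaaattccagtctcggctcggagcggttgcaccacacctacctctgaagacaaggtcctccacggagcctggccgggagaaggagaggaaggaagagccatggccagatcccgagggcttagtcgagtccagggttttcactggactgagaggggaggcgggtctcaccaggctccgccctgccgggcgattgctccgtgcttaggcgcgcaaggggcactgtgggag
Birc5, chr10:103571896-103572145, plus strand: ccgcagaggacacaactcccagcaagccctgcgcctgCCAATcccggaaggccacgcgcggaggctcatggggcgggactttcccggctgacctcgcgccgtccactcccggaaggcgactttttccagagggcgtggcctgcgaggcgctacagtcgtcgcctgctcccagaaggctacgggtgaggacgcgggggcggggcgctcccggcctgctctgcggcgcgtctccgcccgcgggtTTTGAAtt
Prc1, chr1:143659231-143659480, plus strand: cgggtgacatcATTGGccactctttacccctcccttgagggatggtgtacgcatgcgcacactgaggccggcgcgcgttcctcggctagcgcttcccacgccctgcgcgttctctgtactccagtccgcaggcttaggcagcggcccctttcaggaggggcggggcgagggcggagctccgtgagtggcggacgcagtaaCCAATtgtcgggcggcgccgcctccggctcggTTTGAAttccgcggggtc
Mcm6, chr13:42404353-42404602, minus strand: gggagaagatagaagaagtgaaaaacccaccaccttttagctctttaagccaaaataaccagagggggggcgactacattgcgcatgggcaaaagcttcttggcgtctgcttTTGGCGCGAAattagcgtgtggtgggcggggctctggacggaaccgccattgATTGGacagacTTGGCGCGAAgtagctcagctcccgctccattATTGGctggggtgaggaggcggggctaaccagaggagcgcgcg
Mcm7, chr12:22163179-22163428, minus strand: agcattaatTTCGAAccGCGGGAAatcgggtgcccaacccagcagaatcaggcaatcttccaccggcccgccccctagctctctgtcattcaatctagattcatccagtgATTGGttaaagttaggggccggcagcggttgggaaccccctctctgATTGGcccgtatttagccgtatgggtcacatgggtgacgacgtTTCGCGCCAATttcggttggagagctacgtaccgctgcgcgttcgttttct
The E2F letters were found in 4 of the 5 MCM promoters that matched and in 4 of the other 24. Over the 29 promoters, a CCAAT box was found in 21 (72.4%) against 34.3% of all 27457 promoters, a CHR in 11 (37.9%) against 17.3%, and the E2F letters in 8 (27.6%) against 7.97%. The erythroid GATA motif AGATAA was found in 0 of the 29 and in 10.0% of all promoters. The Tk1 window held none of these letters, and the Birc5 and Prc1 windows each held a CHR close to the start. These are matches of letters, not sites of binding.

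The MCM2-7 genes, the subunits of the replicative helicase, had their highest group median in saline 22.5 °C for each of the 6 genes. Mcm6 ranged from 222 to 419 normalized counts in saline 22.5 °C with a median of 326. In saline 16 °C it ranged from 166 to 237 (median 215), in EIH 39 °C from 87.4 to 333 (median 148), in AMPH 22.5 °C from 111 to 375 (median 201) and in AMPH 16 °C from 102 to 256 (median 179). The ranges overlapped between saline 22.5 °C and each other group. Mcm5 had medians of 104 in saline 22.5 °C, 79.0 in saline 16 °C, 68.2 in EIH 39 °C, 57.8 in AMPH 22.5 °C and 50.1 in AMPH 16 °C, again with overlapping ranges. Mcm7, Mcm2, Mcm3 and Mcm4 had saline 22.5 °C medians of 507, 246, 727 and 423 and medians of 315 to 364, 151 to 193, 337 to 601 and 250 to 329 in the other groups.

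The genes of the clamp and of nucleotide supply differed from one another. Pcna, the sliding clamp of DNA polymerase, had medians between 770 in AMPH 22.5 °C and 1006 in AMPH 16 °C. Tk1, the thymidine salvage kinase of S phase, had its highest median, 14461, in EIH 39 °C, where single rats ranged from 4730 to 48003. The other groups had Tk1 medians of 7337 to 9811. Tyms, which makes thymidylate, had medians from 186 in saline 22.5 °C to 339 in AMPH 16 °C.

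Rrm2, the small subunit of ribonucleotide reductase, varied most between the saline groups. For ENSRNOG00000008450, saline 22.5 °C replicates 17 to 22 had 231, 489, 3488, 387, 458 and 1426 normalized counts. Saline 16 °C replicates 1 to 5 had 9114, 8346, 5139, 3639 and 5986. Saline 22.5 °C therefore lay below saline 16 °C in every rat, with replicate 19 just under the lowest. AMPH 22.5 °C ranged from 405 to 7220 (median 3939), EIH 39 °C from 673 to 3254 (median 1719) and AMPH 16 °C from 1672 to 10236 (median 5089). The second identifier, ENSRNOG00000023272, had medians of 171, 719, 401, 704.9 and 854 in saline 22.5 °C, saline 16 °C, EIH 39 °C, AMPH 22.5 °C and AMPH 16 °C. Both identifiers carry one symbol and may share reads, so the value of each is uncertain.

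Most genes of mitosis had their highest group median in the heated rats, for 17 of the 25 identifiers outside the MCM2-7 genes and the clamp and nucleotide supply genes. Aurkb, Bub1b and Ccnb1 had it in saline 22.5 °C, and Aurka, Bub1, Prc1, Tpx2 and Ube2c in AMPH 16 °C. For 27 of the 36 identifiers the highest of all 64 rats was an EIH rat of code V06504. Neither this count nor the 17 was made over all genes. In the 10 EIH rats of other codes the medians of Mki67, Nusap1, Ccnb2 and Cdk1 were 1454, 98.5, 40.4 and 30.0, each below that of another group. The Top2a median of these 10 rats, 72.1, stayed above the other groups. How many of the 17 keep the highest median without the code was not counted. Mki67, the protein that marks dividing cells, ranged from 783 to 8610 in EIH 39 °C (median 1648), from 687 to 2411 in saline 22.5 °C (median 854), from 612 to 1215 in saline 16 °C (median 919), from 434 to 2724 in AMPH 22.5 °C (median 1468) and from 652 to 3703 in AMPH 16 °C (median 1197). Top2a, the topoisomerase that untangles chromosomes, ranged from 31.0 to 422 in EIH 39 °C (median 119), from 24.0 to 350 in saline 22.5 °C (median 64.5) and from 20.0 to 83.4 in saline 16 °C (median 49.1). In the amphetamine groups Top2a had medians of 53.2 and 48.0. The ranges of both genes overlapped in all 5 groups.

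**Figure D1:**
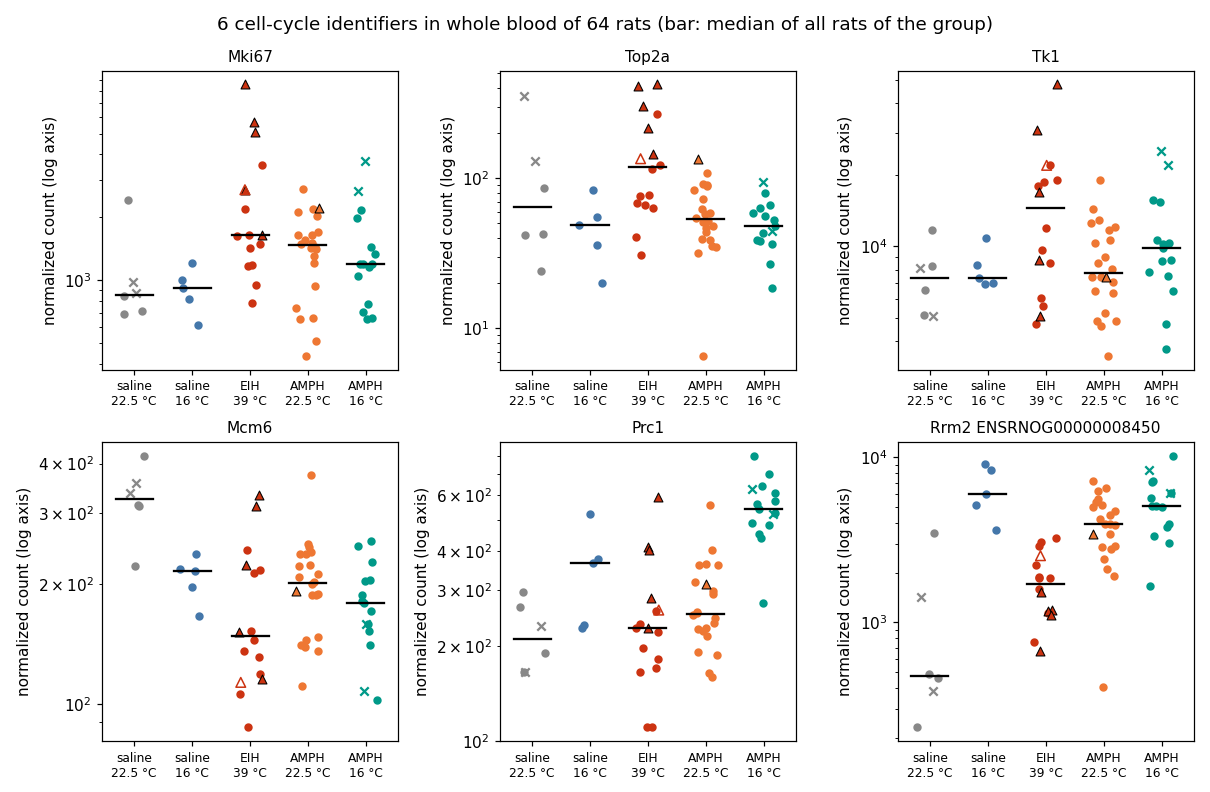
Normalized count (log axis) of 6 identifiers in each of the 64 rats by group, with a bar at the median of the group. Triangles are rats of file code V06504, crosses and the open triangle are rats with over 5000 myoglobin counts. The V06504 triangles of EIH 39 °C hold the highest Mki67 and Top2a values, Mcm6 is highest in saline 22.5 °C and Prc1 in AMPH 16 °C.

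The EIH rats of code V06504 set the upper end of the mitotic genes. Their median was above that of the other 10 EIH rats for 33 of the 36 identifiers, with a median ratio of 1.90. Ttk, a kinase of the spindle checkpoint, had 22.7 to 72.0 normalized counts in these 6 rats and 3.88 to 21.4 in the other 10, and it was the 1 identifier whose values did not overlap. Kif11, the motor that separates the spindle poles, had medians of 327 and 70.7 in the same sets, Kif23, a motor of cytokinesis, 250 and 53.8, and the kinetochore protein Cenpf 338 and 65.4. Cenpe, a kinetochore motor, had 409, 364, 241, 248, 133 and 111 in replicates 6, 7, 8, 9, 11 and 12, against 15.5 to 279 in the other 10. Only 1 AMPH 22.5 °C rat, replicate 7, shared the code, and it lay below the lowest of the 6 for 11 of the 36 identifiers. Within the code the mean log2 level of the erythroid list was 12.36 to 14.64, against 11.97 to 13.85 in the other EIH rats, and that of the T cell list was 7.43 to 9.01 against 7.45 to 9.71. Medians were 10.16 against 11.15 for the monocyte list, 12.80 against 13.26 for the general leukocyte list, and 13.74 against 12.95 for the erythroid list, and the B and plasma cell list was at 6.83 to 9.24 against 7.53 to 8.52. The counts of identifiers for this code were not made over all genes, and whether they are particular to these members was not tested. The part of the code in the group values cannot be told apart from that of the rats in it.

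Among the other mitotic members, the cyclins Ccna2, Ccnb1 and Ccnb2 and the kinase Cdk1 that they activate had EIH medians of 28.5, 92.4, 73.4 and 55.6, and saline 22.5 °C medians of 15.8, 124, 49.2 and 41.6. Ccnb1 was thus the exception among these, with its highest median in saline 22.5 °C. The kinases Aurka, Aurkb, Plk1, Bub1 and Bub1b had EIH medians of 364, 86.2, 21.8, 189 and 26.8, saline 22.5 °C medians of 332, 90.0, 14.2, 214 and 55.0, and AMPH 16 °C medians of 484, 86.2, 13.8, 216 and 13.3. Melk, a kinase of proliferating cells, was low in every group, with medians of 5.65 to 13.4. Birc5, the survivin subunit of the chromosomal passenger complex, had a median of 277 in EIH 39 °C and of 177 to 188 in the other groups. The spindle proteins Kif20a, Nusap1 and Tpx2 had EIH medians of 50.3, 161 and 1187, the kinetochore protein Ndc80 116, and Cdc20 and Ube2c, which work with the anaphase promoting complex, 347 and 1214. The saline 22.5 °C medians of these 6 genes were 30.6, 155, 1223, 94.4, 256 and 1113, and AMPH 16 °C had 1527 for Tpx2 and 2083 for Ube2c. Each of these genes overlapped between EIH 39 °C and every other group.

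Prc1, which bundles the microtubules of the central spindle, had its highest median in AMPH 16 °C. It ranged from 273 to 800 in AMPH 16 °C (median 543), and the medians were 367 in saline 16 °C, 252 in AMPH 22.5 °C, 228 in EIH 39 °C and 210 in saline 22.5 °C. Saline 16 °C ranged from 227 to 524 and saline 22.5 °C from 165 to 295, so the highest rats of saline 22.5 °C reached into the 16 °C groups. Within groups, the coefficient of variation over rats had a median over the identifiers of 69.2% in EIH 39 °C, 45.9% in saline 22.5 °C, 45.1% in AMPH 16 °C, 43.1% in AMPH 22.5 °C and 21.8% in saline 16 °C.

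Amphetamine was first compared with saline at each temperature, with edgeR's quasi-likelihood test and Benjamini-Hochberg adjustment over all genes tested. A gene was called at an adjusted p under 0.05 and an absolute log2 fold change above 0.58. At 22.5 °C (8 AMPH against 4 saline rats, those with the same form of rat number) edgeR called 0 of the 36 identifiers and 0% of the 12848 genes tested, with 1 identifier at an unadjusted p under 0.05. DESeq2 also called 0 of the 36. The median log2 fold change of the 36 was 0.03, and that of all genes -0.01. Mki67 differed by 0.16 ± 0.48 (SE, adjusted p = 0.89), Top2a by 0.05 ± 0.54 (adjusted p = 0.97), Mcm5 by -0.39 ± 0.28 (adjusted p = 0.55) and Pcna by -0.14 ± 0.20 (adjusted p = 0.76). Alas2 and Cd3e differed by 0.49 ± 0.50 (adjusted p = 0.67) and -0.84 ± 0.42 (adjusted p = 0.49). Without AMPH replicate 17 and saline replicate 19, edgeR called 3.29% of 13017 genes and 1 identifier, Rrm2 ENSRNOG00000008450, at 3.58 ± 0.45 (adjusted p = 0.0073), against 1.81 ± 0.78 (adjusted p = 0.47) with them. In that fit Mcm6, Mcm7 and Bub1b differed by -0.71 ± 0.21, -0.89 ± 0.28 and -1.16 ± 0.35 (adjusted p = 0.088, 0.095 and 0.091). The 2 rats were picked for values near the other group, so leaving them out widens the groups' difference by that choice.

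At 16 °C (13 AMPH against 5 saline rats) edgeR called 0 of the 36, where 0.436% of 12396 genes were called, and 6 of the 36 had an unadjusted p under 0.05. DESeq2 called 1, lower, and 2.81% of all genes. The median log2 fold change was 0.18, against 0.01 over all genes. Mki67, Top2a, Mcm5 and Pcna differed by 0.37 ± 0.25, -0.03 ± 0.30, -0.54 ± 0.19 and 0.07 ± 0.20 (adjusted p = 0.49, 0.98, 0.19 and 0.89). Alas2 differed by 0.09 ± 0.22 and Cd3e by -0.12 ± 0.17 (adjusted p = 0.87 and 0.75). The amphetamine effect at 22.5 °C minus that at 16 °C was tested in one fit, and edgeR called 0 of the 36, with 0.015% of 13363 genes called and 1 identifier at an unadjusted p under 0.05, and DESeq2 called 0. Mki67, Top2a, Mcm5 and Pcna had differences of -0.20 ± 0.51, 0.09 ± 0.58, 0.17 ± 0.32 and -0.19 ± 0.29 (adjusted p = 0.91, 0.97, 0.88 and 0.85), and Alas2 and Cd3e 0.42 ± 0.49 and -0.69 ± 0.42 (adjusted p = 0.79 and 0.57). Without AMPH replicate 17 and saline 22.5 °C replicate 19, both Rrm2 identifiers were called, Rrm2 ENSRNOG00000008450 at 3.95 ± 0.54 (adjusted p = 0.00010) and RRM2 ENSRNOG00000023272 at 2.28 ± 0.69 (adjusted p = 0.049), with 5.28% of 13549 genes called. Here too the choice of the 2 rats by their Rrm2 counts widens the difference. In counts simulated for the 22.5 °C comparison, edgeR recovered 8% of genes changed by 1 on the log2 scale and 94% of those changed by 2.5. Of the genes called there, 6.42% with edgeR and 18% with DESeq2 had not been changed.

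Saline at 16 °C was compared with saline at 22.5 °C (5 against 4 rats, of different file codes). edgeR called 0 of the 36 and 0.00817% of 12238 genes, with 6 identifiers at an unadjusted p under 0.05, and DESeq2 called 2, both higher, and 8.66% of all genes. Rrm2 ENSRNOG00000008450 was 2.46 ± 0.76 log2 higher at 16 °C (adjusted p = 0.099). Without saline 22.5 °C replicate 19, edgeR called 14.8% of 12452 genes and 4 of the 36, Rrm2 ENSRNOG00000008450 and RRM2 ENSRNOG00000023272 higher (4.10 and 2.43) and Mcm6 and Mcm7 lower (-0.69 and -0.64). Of 9 omissions of single rats, this was the 1 that changed the number called. Replicate 19 was picked for values near the other group, Rrm2 among them, so leaving it out widens the Rrm2 difference by that choice. Mki67, Top2a, Mcm5 and Pcna differed by -0.32 ± 0.37, 0.02 ± 0.43, -0.19 ± 0.22 and 0.24 ± 0.16 (adjusted p = 0.61, 0.98, 0.61 and 0.36), and Alas2 and Cd3e by 0.53 ± 0.21 and -0.79 ± 0.17 (adjusted p = 0.16 and 0.081).

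Heat was compared with saline at 22.5 °C (15 EIH against 4 saline rats, with no file code in common). edgeR called 15.7% of 12986 genes, 7% higher and 8.66% lower, and 2 of the 36 identifiers, Cenpe higher and Mcm6 lower. Cenpe rose by 2.18 ± 0.73 on the log2 scale (adjusted p = 0.046) and Mcm6 fell by 0.90 ± 0.28 (SE, adjusted p = 0.035). The median log2 fold change of the 36 was 0.74, against -0.01 over all genes, and 28 were positive against 49.5% of all genes. Mki67 and Top2a differed by 1.09 ± 0.57 and 1.63 ± 0.63 (adjusted p = 0.17 and 0.076), and Mcm5 and Pcna by -0.11 ± 0.32 and -0.28 ± 0.21 (adjusted p = 0.83 and 0.35). Cd3e fell by 1.68 ± 0.48 (adjusted p = 0.024) and Alas2 differed by 0.53 ± 0.47 (adjusted p = 0.43). Of the identifiers in the cell type lists, 15 of 16 T cell, 6 of 9 natural killer cell and 1 of 13 B and plasma cell ones (Cd180) fell. Those that rose were 9 of 10 platelet, 3 of 10 monocyte and 5 of 24 erythroid identifiers, with Nos2 counted under each of its monocyte identifiers. In the blood progenitor list 1 of 5 (Meis1) also rose, and in the neutrophil and precursor list 1 of 12 (Csf3r). The call of Cd3e ended without saline 22.5 °C replicate 17, 18 or 21 (adjusted p = 0.117, 0.0719 and 0.0565).

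The call of Cenpe ended without the V06504 rats (1.30 log2, adjusted p = 0.11), and then edgeR called 0 identifiers higher and Mcm4, Mcm6 and Mcm7 lower, with 16.4% of 12665 genes called. It also ended when any 1 of the 4 saline rats was left out. Leaving out saline 22.5 °C replicate 17, 18 or 21 left 0 identifiers called, with 2.04%, 2.93% and 5.85% of all genes. Without replicate 19, edgeR called Mcm6 lower and Rrm2 ENSRNOG00000008450 and RRM2 ENSRNOG00000023272 higher (2.08 and 1.64), with 14.5% of all genes. That rat was picked for its high Rrm2 among other values, so the Rrm2 difference widens by the choice. With Alas2 and Cd3e as covariates 0 identifiers and 0.123% of all genes were called.

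**Figure D2:**
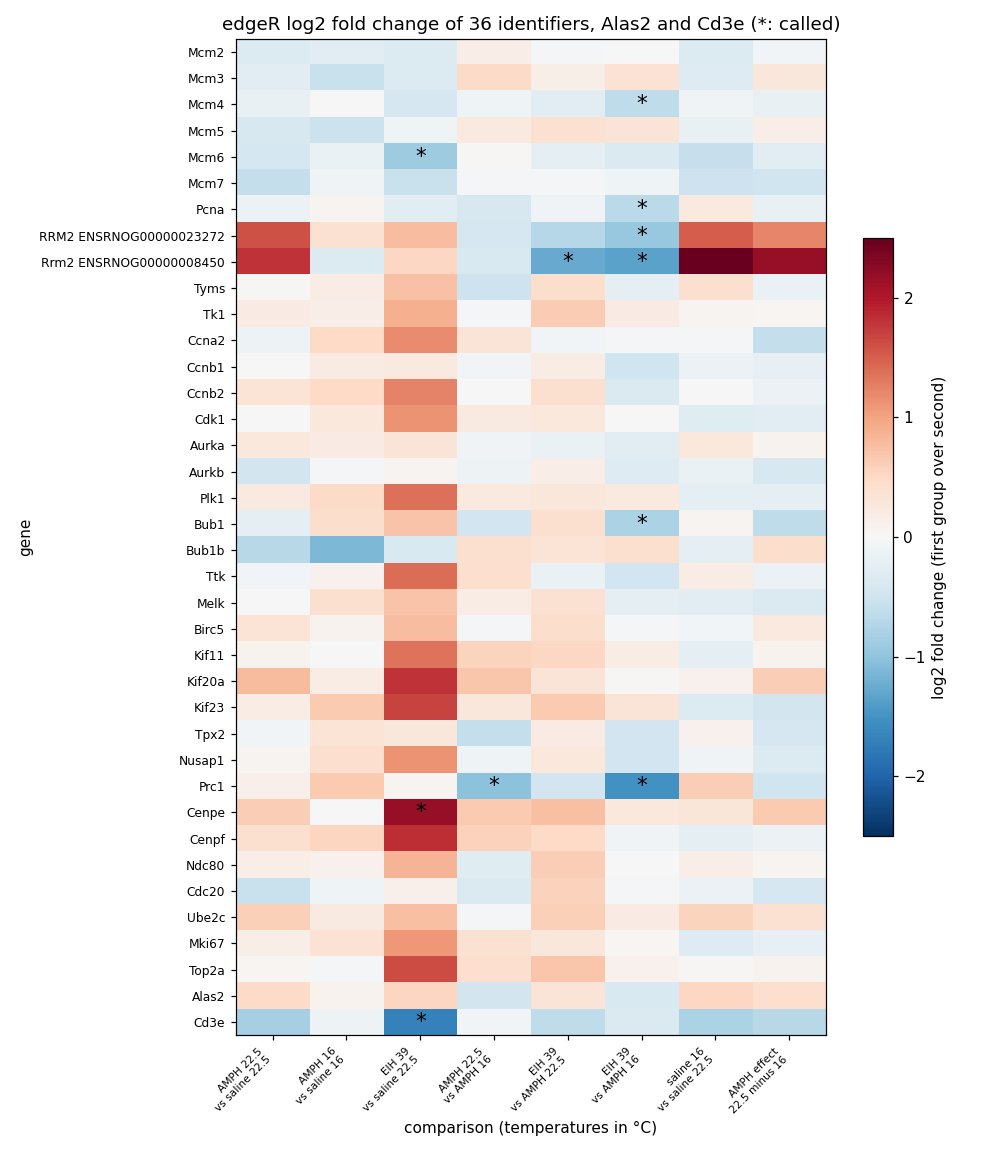
Colour gives the edgeR log2 fold change of the first group over the second for the 36 identifiers, Alas2 and Cd3e (rows) in 8 comparisons (columns), and stars mark those called. The column of EIH 39 °C against saline 22.5 °C is red for most mitotic genes and blue for the MCM genes, with stars at Cenpe, Mcm6 and Cd3e, and Prc1 is starred in both columns against AMPH 16 °C.

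Hyperthermic and cool amphetamine rats were compared within the file codes that hold both (10 AMPH 22.5 °C against 9 AMPH 16 °C rats, file code as a covariate). edgeR called 10.1% of 12091 genes, 5.29% higher and 4.79% lower at 22.5 °C, and 1 of the 36 identifiers, lower. Prc1 fell by 1.02 ± 0.16 on the log2 scale at 22.5 °C (adjusted p = 0.00058), and it was called under every alternative, with values of -1.13 to -0.87. Pcna differed by -0.40 ± 0.12 (adjusted p = 0.030), under the fold limit. Mki67, Top2a and Mcm5 differed by 0.38 ± 0.28, 0.42 ± 0.28 and 0.25 ± 0.18 (adjusted p = 0.40, 0.34 and 0.38), and Alas2 and Cd3e by -0.46 ± 0.21 and -0.07 ± 0.19 (adjusted p = 0.15 and 0.86). The median over the 36 was -0.01, and that of all genes 0.01.

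EIH 39 °C was compared with AMPH 16 °C in the same way (7 against 10 rats, none of code V06504). edgeR called 9.99% of 12096 genes and 6 of the 36 identifiers, all lower in EIH, where 4.42% of all genes were called lower and 5.56% higher. Prc1 fell by 1.51 ± 0.23 (adjusted p = 0.00049), Rrm2 ENSRNOG00000008450 by 1.34 ± 0.26 (adjusted p = 0.0037) and RRM2 ENSRNOG00000023272 by 0.95 ± 0.28 (adjusted p = 0.038). Mcm4 fell by 0.63 ± 0.13 (adjusted p = 0.0040), Pcna by 0.67 ± 0.18 (adjusted p = 0.025) and Bub1 by 0.79 ± 0.22 (adjusted p = 0.028). Mki67, Top2a and Mcm5 differed by 0.05 ± 0.22, 0.12 ± 0.17 and 0.31 ± 0.18 (adjusted p = 0.91, 0.73 and 0.31), and Alas2 and Cd3e by -0.39 ± 0.31 and -0.37 ± 0.26 (adjusted p = 0.49 and 0.42).

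With all 15 EIH and 13 AMPH 16 °C rats and no covariate, which brings in the V06504 rats, edgeR called 14 identifiers higher and 3 lower and 20.1% of 11803 genes, Bub1 changed sign to 0.29, and Prc1 was called in each of the alternatives. Without EIH 39 °C replicate 14, 3 identifiers were called, Prc1, Rrm2 ENSRNOG00000008450 and Mcm4. Over 17 omissions of single rats, RRM2 ENSRNOG00000023272 lost its call in 10, Bub1 in 7, Pcna in 4 and Mcm4 in 2.

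The 2 kinds of hyperthermia, EIH 39 °C and AMPH 22.5 °C, were compared with file code as a covariate (13 against 10 rats). edgeR called 0.133% of 12055 genes and 1 of the 36, Rrm2 ENSRNOG00000008450, which fell by 1.26 ± 0.24 in EIH (adjusted p = 0.036). The median of the 36 was 0.29, against -0.01 over all genes. Mki67, Top2a, Mcm5 and Pcna differed by 0.29 ± 0.33, 0.70 ± 0.29, 0.37 ± 0.23 and -0.09 ± 0.16 (adjusted p = 0.71, 0.30, 0.48 and 0.82), and Alas2 and Cd3e by 0.32 ± 0.35 and -0.63 ± 0.36 (adjusted p = 0.69 and 0.45). Without the V06504 rats 0 identifiers were called, and leaving out any of 14 single rats ended the call. With all rats and no covariate, 9 were called higher and 1 lower, with 3.26% of 12130 genes called.

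The wider pathway was followed in 3 lists of genes that are not among the 35, counted by identifier. In EIH 39 °C against saline 22.5 °C, edgeR called 2 of 53 other S phase and licensing genes higher and 5 lower, 1 of 54 other mitosis genes higher and 1 lower, and 4 of 45 genes of the G1 cyclins, E2F, checkpoint and inhibitors higher and 3 lower, where 7% of all genes were called higher and 8.66% lower. The smallest p values were those of Cdk2, the kinase of S phase entry (-1.31 ± 0.28, adjusted p = 0.0082), the checkpoint kinase Atr (-1.06 ± 0.25, adjusted p = 0.011) and Gins4, a partner of the helicase (-0.98 ± 0.24, adjusted p = 0.014). In AMPH 22.5 °C against AMPH 16 °C, 6 of 49 other mitosis genes were lower and 1 higher, against 4.79% and 5.29% of all genes. Of the S phase list 1 of 49 was lower and 0 higher, and of the G1 and checkpoint list 2 of 45 were lower and 2 higher. The smallest p values were those of the kinesin Kif18a (-1.73 ± 0.25, adjusted p = 0.00023), the histone H2afz (-0.72 ± 0.11, adjusted p = 0.00034) and, of the S phase list, Mcm10 (-0.96 ± 0.15, adjusted p = 0.00035). In EIH 39 °C against AMPH 16 °C, Kif18a, H2afz and Mcm10 were again the genes of smallest p, and they fell by 1.58 ± 0.17, 0.92 ± 0.13 and 1.41 ± 0.23 (adjusted p = 6.3e-05, 0.00031 and 0.00082). There 4 of 49 other mitosis genes were lower and 0 higher, 3 of 49 S phase genes lower and 0 higher, and 1 of 45 G1 and checkpoint genes lower and 1 higher. Over all genes 4.42% were lower and 5.56% higher. Both comparisons share AMPH 16 °C rats. In AMPH 16 °C against saline 16 °C the 1 gene called in these lists was Cdkn1a, the p21 inhibitor of cyclin kinases, which rose by 1.85 ± 0.33 (adjusted p = 0.017). edgeR also called Cdkn1a higher in EIH 39 °C against saline 22.5 °C, by 2.25 ± 0.70 (adjusted p = 0.035).

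The relation of each member to Alas2 and Cd3e was then followed from rat to rat within AMPH 22.5 °C (22 rats), EIH 39 °C (15 rats) and AMPH 16 °C (13 rats), as 216 correlations adjusted together. Tk1 followed Alas2 in each of the 3 groups, with Pearson r of 0.83, 0.96 and 0.90 and Spearman rho of 0.91, 0.96 and 0.80 (permutation test, adjusted p of r = 0.00086 in each). Birc5 followed it in AMPH 22.5 °C and EIH 39 °C, with r of 0.77 and 0.85 (rho 0.76 and 0.84, permutation adjusted p = 0.00086 and 0.0032), and had r of 0.74 in AMPH 16 °C (permutation adjusted p = 0.051). Tyms, Tpx2, Ube2c and Cdc20 followed Alas2 in EIH 39 °C, with r of 0.91, 0.79, 0.79 and 0.75 (rho 0.87, 0.80, 0.76 and 0.75, permutation adjusted p of r = 0.00086, 0.011, 0.014 and 0.022). Aurka, Tpx2 and Mki67 did so in AMPH 22.5 °C, with r of 0.69, 0.61 and 0.60 (rho 0.71, 0.70 and 0.59, permutation adjusted p of r = 0.016, 0.048 and 0.044, of rho 0.0090, 0.012 and 0.064). Without the 2 rats farthest in Alas2, r of Tk1 was 0.90, 0.96 and 0.79 in the 3 groups, and r of Birc5 was 0.76, 0.94 and 0.47.

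Of the 36 identifiers, 8, 14 and 9 had r above 0.5 with Alas2 in AMPH 22.5 °C, EIH 39 °C and AMPH 16 °C, where 15.1%, 16.7% and 10.7% of all expressed genes had it. Below -0.5 lay 1, 0 and 0 of the 36, against 24.5%, 14.9% and 5.82% of all expressed genes. Mcm4 went the other way in AMPH 22.5 °C, with r of -0.72 and rho of -0.41 (permutation adjusted p = 0.018 for r and 0.21 for rho), and this rested on replicate 21, without which r was -0.45 (adjusted p = 0.18). Without that rat 10 identifiers correlated with Alas2 in AMPH 22.5 °C, against 6 with it. Without replicate 17, 3 did, Tk1, Aurka and Birc5, with r of 0.82, 0.66 and 0.75. Without the V06504 rats the count in EIH 39 °C went from 6 to 3, Tk1, Birc5 and Cdc20, with r of 0.97, 0.97 and 0.90.

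Relations to Cd3e were fewer. Mcm6 and Bub1b followed Cd3e in AMPH 16 °C, with r of 0.84 and 0.75 (rho 0.73 and 0.65, permutation adjusted p of r = 0.011 and 0.044), and neither passed by rho (permutation adjusted p = 0.064 and 0.13). Cdc20 ran against Cd3e in AMPH 22.5 °C, with r of -0.60 and rho of -0.59 (permutation adjusted p = 0.044 and 0.058), and without replicate 17 r was -0.50 (permutation adjusted p = 0.15). Top2a passed there by rho alone, with rho of -0.64 and r of -0.32 (permutation adjusted p = 0.030 and 0.37). Without the 2 rats farthest in Cd3e, r was 0.80 for Mcm6, 0.62 for Bub1b and -0.56 for Cdc20. In EIH 39 °C, 0 of the 36 passed. The number with r above 0.5 was 2, 0 and 4 in the 3 groups, against 11.8%, 7.86% and 6.81% of all expressed genes, and the number below -0.5 was 5, 2 and 0, against 12.1%, 6.03% and 6.8%.

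**Figure D3:**
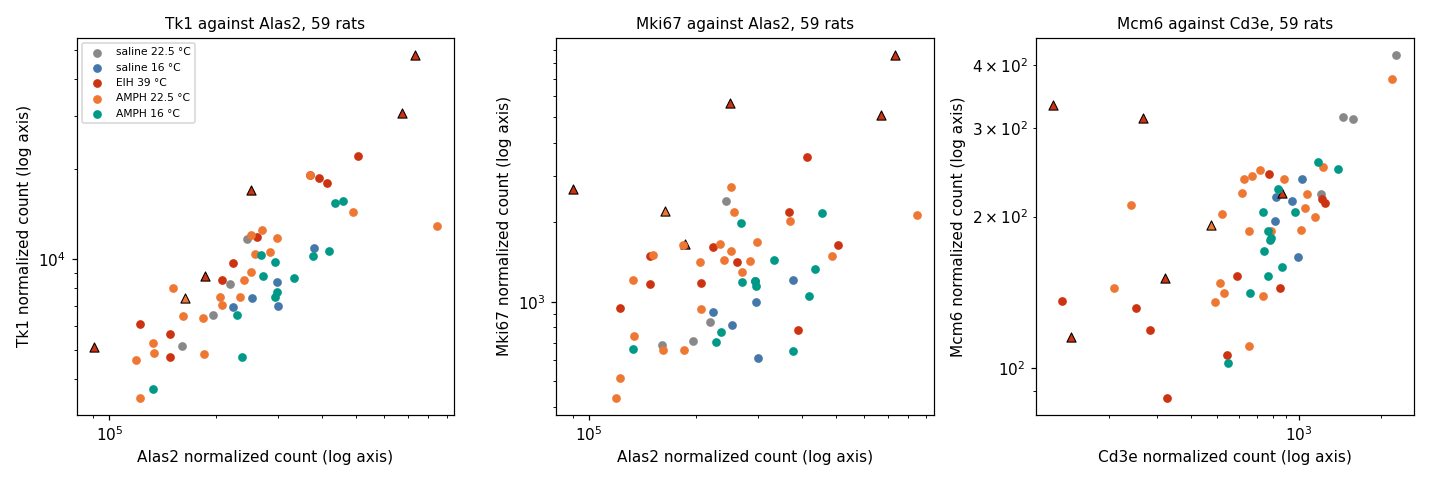
Each point is 1 of 59 rats, with normalized counts on log axes and triangles for file code V06504. Tk1 rises with Alas2 over all groups, Mki67 does so with more scatter and V06504 rats above the others, and Mcm6 rises with Cd3e except in V06504 rats.

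With the means of group and file code removed, the 59 rats gave a residual r that is a description and carries no p. The share of all expressed genes above 0.5 was not worked out for it. The residual r with Alas2 had a median of 0.33 over the 36 identifiers and was above 0.5 for 13 of them. It was 0.94 for Tk1, 0.81 for Birc5, 0.76 for Tyms, 0.73 for Ube2c and 0.62 for Mki67, but 0.16 for Top2a, 0.05 for Plk1 and 0.04 for Pcna. The 6 MCM genes lay between -0.25 and -0.08 with Alas2 and between 0.23 and 0.54 with Cd3e, the highest being Mcm7. Bub1b (-0.25 and 0.36) and Aurkb (0.0011 and 0.30) lay beside the MCM genes. Within the 5 file codes of at least 6 rats, r was also taken with the groups of a code pooled, so it includes differences between groups. There r of Tk1 with Alas2 was 0.72, 0.76, 0.89, 0.85 and 0.98, and r of Mcm6 with Cd3e was 0.74, 0.50, 0.81, 0.90 and -0.02. The median r with Alas2 over the 36 identifiers was 0.48, -0.15, 0.44, 0.35 and 0.49 in the same codes. Mki67 had r with Alas2 of 0.79, -0.03, -0.33, 0.77 and 0.77.

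**Figure D4:**
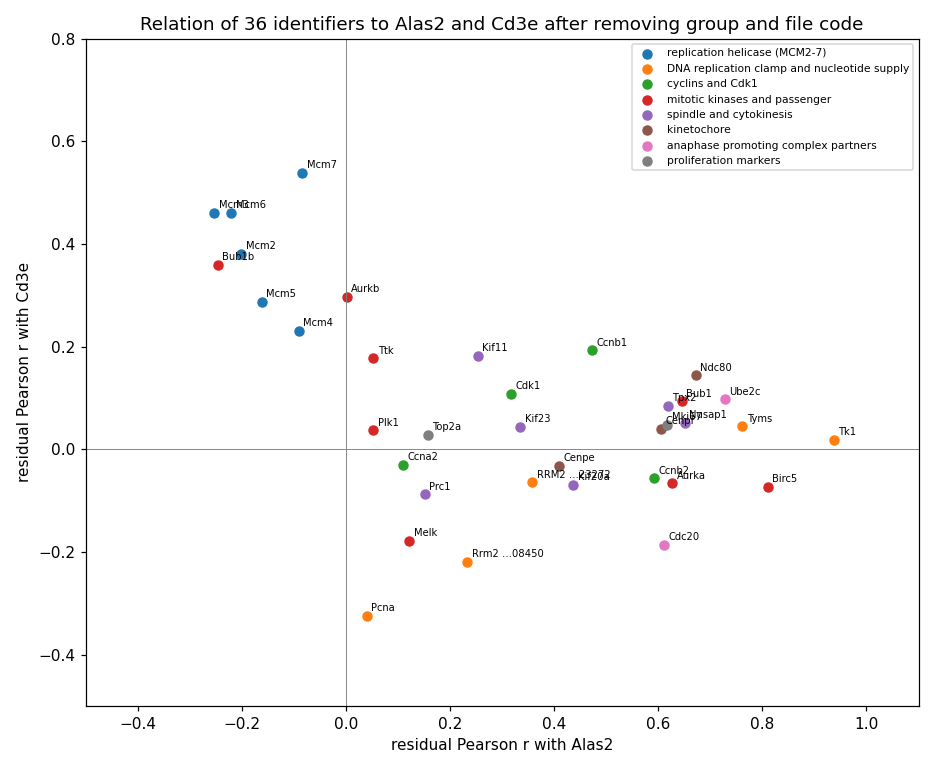
Residual Pearson r with Alas2 (x axis) and with Cd3e (y axis) for each of the 36 identifiers over 59 rats, coloured by role. Tk1 and Birc5 lie farthest to the right, and the 6 MCM genes lie at the upper left with Bub1b.

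Over lists of cell type markers the same residual r differed between the members. With the mean of the erythroid list, 16 of the 36 had a residual r above 0.5, led by Tk1 (0.95), Birc5 (0.91), Nusap1 (0.82) and Tyms (0.81). With the B and plasma cell list, 8 had it, and these were the 6 MCM genes (0.51 to 0.74), Bub1b (0.65) and Aurkb (0.54). With the T cell list 1 had it, Mcm7 (0.52), and the 6 MCM genes lay between 0.17 and 0.52. For these lists too, the share of all expressed genes above 0.5 was not worked out. The list that gave the highest residual r was the erythroid for 20 identifiers, the B and plasma cell list for 12 and the T cell list for 1. This split holds near ties, as Top2a, counted with the B and plasma cell list, had 0.287 there and 0.282 with the erythroid list. The 6 MCM genes had negative residual r with the general leukocyte list (-0.77 to -0.55), the monocyte list (-0.58 to -0.35) and the neutrophil list (-0.56 to -0.39). Rrm2 ENSRNOG00000008450 had its highest, 0.66, with neutrophils and their precursors and -0.63 with B and plasma cells. The members and the marker lists were read from the same libraries, and these values do not say which cells carried the transcripts.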

How the data were processed

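Whole blood RNA of 64 rats was depleted of globin transcripts and sequenced from stranded polyadenylated libraries. The authors deposited RSEM expected counts per gene, 1 file per rat, not normalized. The submitters' processing notes name CASAVA 1.8.2, Bowtie 0.12.9, RSEM 1.2.0 and the rn5 build. Here the expected counts were rounded, and genes listed in all files were used. Groups came from the sample labels, whose rat numbers were taken as separate animals. Tests excluded the 5 rats whose Mb count passed 5000. Genes reaching 10 counts in a number of rats no lower than the size of the smallest group were tested with edgeR 4.0.16 (TMM, quasi-likelihood) in R 4.3.3, and DESeq2 1.42.0 was an alternative and gave the size factors. Correlations used log2 of normalized counts plus 1 and 100000 permutations in Python 3.11.15 with numpy 2.4.6, scipy 1.17.1, pandas 2.3.3 and statsmodels 0.14.6, and figures matplotlib 3.10.9. The scripts were tested on simulated data. No 2 libraries of a group agreed within sampling noise. The members, gene lists and tests were chosen with earlier results of these data known. Fold change, SE and adjusted p are given for Mki67, Top2a, Mcm5, Pcna, Alas2, Cd3e and each member called, and for the 3 genes of smallest p of the wider lists. Promoters came from RefSeq (GRCr8).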

Additional observations from a re-analysis of the deposited data

Results flagged for a closer look

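In the saline groups, a rat was looked at again when its gap to the nearest other rat, over the range of the group, passed Dixon's 95% critical value. Of 76 such checks 7 passed, and chance passes about 1 group in 20. In saline 22.5 °C, replicate 19 had 3488 normalized counts of Rrm2 ENSRNOG00000008450, where the other 5 rats had 231 to 1426. AMPH 22.5 °C replicate 17 had 405, within the range of those 5 saline rats, and whether these 2 labels were exchanged was not tested. Replicate 18 had 2411 of Mki67 against 687 to 979. Replicate 20, a rat with over 5000 myoglobin counts that was left out of the tests, had 101.1 of Ccna2, 80.7 of Kif23 and 350 of Top2a, where the other rats had at most 39.7, 49.3 and 131. In saline 16 °C, replicate 3 had 391 of Mcm3 against 595 to 603, and replicate 2 had 508.1 of Aurka against 326 to 378. The part of sample quality in these values was not tested. The amphetamine effects at 22.5 °C and 16 °C, tested as an interaction with edgeR, did not differ past the threshold for any of the 36 identifiers.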

How the results depend on the processing

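Of 1185 values of single genes under the alternatives, 1041 kept both their direction and their side of the threshold, 651 of them where a single rat was left out. Many are values of genes that the main fit did not call. The numbers of identifiers called or correlated moved more often. Where a single rat was left out, 26 of them moved and 76 stayed the same or close. Under the other alternatives 32 moved and 60 stayed so. The cause of the changes below was not tested. The number of the 36 identifiers called in AMPH 16 °C against saline 16 °C was 1 with DESeq2 (2.81% of all genes). For EIH 39 °C against saline 22.5 °C it was 8 with DESeq2 (23.2% of all genes), 1 with no filter on low counts (10.1%), 5 with all rats kept whatever their Mb count (28.8%), 0 with Alas2 and Cd3e as covariates (0.123%) and 6 with saline 16 °C as the control (13.5%). It was 2 with DESeq2 in AMPH 22.5 °C against AMPH 16 °C (11.5%) and 2 with DESeq2 in saline 16 °C against saline 22.5 °C (8.66%). Without both saline replicate 19 and AMPH replicate 17 of 22.5 °C, which lay near the other group, it was 1 in AMPH against saline at 22.5 °C (3.29%) and 2 in the difference of amphetamine effects (5.28%), where Mcm5 was -0.065 and Top2a -0.055. Top2a was -0.11 in AMPH against saline. For EIH 39 °C against AMPH 22.5 °C it was 0 with all rats kept, 0 with Alas2 and Cd3e as covariates, 0 without the rats of code V06504 and 10 with all rats and no covariate (3.26%). For EIH 39 °C against AMPH 16 °C it was 3 with Alas2 and Cd3e as covariates and 17 with all rats and no covariate (20.1%).

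Rats of different groups share numbers, but the labels tie a number to nothing else, and not every same-numbered pair deviated together (3 of 4 pairs over 0.1 in AMPH against saline at 22.5 °C, 6 of 15 in EIH 39 °C against AMPH 22.5 °C). With the replicate block, 2 identifiers were called in EIH 39 °C against AMPH 22.5 °C (1.82% of all genes, and 3 identifiers in the same rats with no block) and 16 in EIH 39 °C against AMPH 16 °C (21 with no block, 18.1% and 20.9%). The same rats with no block gave 1 in AMPH 16 °C against saline 16 °C and 5 in AMPH 22.5 °C against AMPH 16 °C. The log2 fold change turned direction in the replicate block fit for Mki67 (-0.11) and Top2a (-0.25) in AMPH against saline at 22.5 °C, for Pcna (-0.10) and Top2a (0.20) at 16 °C and for Bub1 (0.16) in EIH 39 °C against AMPH 16 °C. With no block these were -0.10, -0.091, -0.13, 0.16 and 0.40, and Cd3e at 16 °C was 0.0055.

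With Alas2 and Cd3e as covariates, which makes the test of these 2 genes circular, Alas2 was -0.021, -0.0054, -0.049, -0.020 and -0.048 in AMPH against saline at 22.5 °C and at 16 °C, EIH 39 °C against saline, EIH 39 °C against AMPH 22.5 °C and saline 16 °C against 22.5 °C. Cd3e was 0.035 in the difference of amphetamine effects. Mki67 was -0.39 in AMPH against saline at 22.5 °C, Mcm5 was 0.18 in saline 16 °C against 22.5 °C, and Top2a was -0.93, 0.030, -0.0006, -0.58 and -0.16 in AMPH against saline at 22.5 °C and at 16 °C, EIH 39 °C against AMPH 16 °C, saline 16 °C against 22.5 °C and the difference of effects. With all rats kept, Top2a was -1.13, 0.043, -1.15 and -1.15 in AMPH against saline at 22.5 °C and at 16 °C, saline 16 °C against 22.5 °C and the difference of effects, Cd3e was 0.0075 in AMPH 22.5 °C against AMPH 16 °C, Mki67 was -0.086 in EIH 39 °C against AMPH 16 °C and Mcm5 was -0.017 in the difference of effects. With file code as a covariate at 16 °C, Alas2 was -0.025 and Pcna -0.18. Mcm5 was 0.17 against saline 16 °C in place of saline 22.5 °C, and Bub1 was 0.29 with all rats and no covariate in EIH 39 °C against AMPH 16 °C.

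Leaving out single rats gave 0 to 3 identifiers called in EIH 39 °C against saline 22.5 °C, 1 to 2 in AMPH 22.5 °C against AMPH 16 °C, 0 to 1 in EIH 39 °C against AMPH 22.5 °C, 3 to 6 in EIH 39 °C against AMPH 16 °C, 0 to 4 in saline 16 °C against 22.5 °C and 0 to 1 in the difference of effects. Over the same omissions, the log2 fold change of Mki67 lay between -0.033 and 0.78 in AMPH against saline at 22.5 °C, between -0.090 and 0.21 in EIH 39 °C against AMPH 16 °C, between -0.52 and 0.32 in saline 16 °C against 22.5 °C and between -0.41 and 0.43 in the difference of effects. Top2a lay between -0.17 and 0.48 in AMPH against saline at 22.5 °C, between -0.23 and 0.26 at 16 °C, between -0.27 and 0.46 in saline 16 °C against 22.5 °C and between -0.19 and 0.53 in the difference of effects. Mcm5 lay between -0.26 and 0.011 in EIH 39 °C against saline 22.5 °C, Pcna between -0.15 and 0.010 in EIH 39 °C against AMPH 22.5 °C and Cd3e between -0.18 and 0.091 in AMPH 22.5 °C against AMPH 16 °C.

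The number of identifiers correlated with Alas2 in AMPH 22.5 °C was 11 on residuals of group and file code and 3 to 10 without replicate 17 or 21. In EIH 39 °C it was 3 without the V06504 rats and 10 on residuals. In AMPH 16 °C it was 8 with all rats kept. With Cd3e it was 0 in AMPH 16 °C without the 2 farthest rats. In AMPH 22.5 °C it was 0 with log2 TMM CPM, 0 without the 2 farthest rats, 0 without the V06504 rat, 0 on residuals, 4 with all rats kept (which changes only the adjustment there) and 0 to 3 without replicate 17 or 21. The permutations on residuals took no account of the means already fitted. A rat alone in its file code, such as AMPH 22.5 °C replicate 21, has its residual set by the fit. The counts on residuals are therefore descriptions. The alternatives without the V06504 rats, without replicate 17 or 21, without both replicates 17 and 19, without single rats of the EIH 39 °C and amphetamine groups compared with each other, and the block rats with no block were chosen after seeing the data.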
